A study of Sus scrofa with 21 samples.

Results

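Androgens are made in the Leydig cells, which lie between the seminiferous tubules of the testis. Most of the genes described here carry out or serve that synthesis, while LHCGR is a hormone receptor and INSL3 a peptide hormone. The list names 10 genes, and 9 of them were found by symbol among the 25880 Ensembl pig genes with counts: STAR, CYP11A1, CYP17A1, HSD17B3, CYB5A, FDX1, POR, LHCGR and INSL3. HSD3B1 was matched to no identifier and is named only. All 9 genes passed the filter on low counts in every comparison, and the lowest count of any of them in any boar was 505, for POR in boar L8.

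In a Leydig cell, luteinizing hormone from the pituitary binds its receptor, LHCGR, and raises cyclic AMP. STAR then moves cholesterol to the inner mitochondrial membrane, where CYP11A1 cuts the side chain to give pregnenolone with electrons that FDX1 (ferredoxin) brings from ferredoxin reductase. In the endoplasmic reticulum, CYP17A1 hydroxylates the steroid and splits off its side chain with electrons from POR (cytochrome P450 oxidoreductase), and CYB5A (cytochrome b5) favours the splitting step. HSD17B3 reduces androstenedione to testosterone. INSL3 is a peptide hormone of the Leydig cell and takes no part in steroid synthesis. Boar testis is known for a high output of androgens, oestrogens and the androstene pheromones that cause boar taint.

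Testis RNA of 21 boars used for artificial insemination was sequenced, 13 Landrace and 8 Duroc, with 1 library per boar. The boars had been selected for their sperm, by the share of spermatozoa with hyperactive motility, the vigorous asymmetric beat needed for fertilization. In Landrace, 4 boars with low hyperactivity at ejaculation (day 0; L1, L2, L3 and L4) were compared with 4 boars with high hyperactivity (L5, L6, L7 and L8), which is contrast (i). Boars whose hyperactivity changed little over 96 h of liquid storage at 18 °C (day 0 to day 4; L2, L9, L10 and L12) were compared with boars in which it changed much (L7, L13 and L15), which is contrast (iii). L2 and L7 are in both contrasts, which are therefore not independent. In Duroc, 5 boars labelled high (D1, D2, D3, D4 and D5) were compared with 3 labelled low (D6, D7 and D9), which is contrast (ii). Matched by boar name, the labels and the published grouping disagree for every Duroc boar but D5. However, D2 and D3 held 84446404 and 125576407 counts on genes, more than the total reads published under those names. The names thus cannot stand for the same boars in both sources, at least for D2 and D3. The direction of contrast (ii) is given as labelled and is in doubt. The tissue was whole testis taken at slaughter, the semen was collected earlier, and the age of each boar is not given in the sources used here.

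The libraries held 41358671 to 125576407 counts on genes, and the 9 genes together took 0.109% to 0.671% of them. Values are given as CPM (gene counts scaled to library size, normalized by TMM over the 21 libraries). In whole tissue, fewer Leydig cells, less RNA per Leydig cell and RNA of these genes from other cells cannot be told apart. All 6 matched Leydig markers were present, but 5 of them are genes described here. The marker outside the list was NR5A1, at a mean of 8.16 ± 2.32 CPM (SD, n = 13) in Landrace and 7.79 ± 2.10 CPM (SD, n = 8) in Duroc. A single gene does not measure the number of Leydig cells. Adrenal cortex markers, which would show another steroid-making tissue, summed to 0.247 to 1.45 CPM, and CYP21A2, the adrenal hydroxylase, had at most 16 counts in a library. Of the 8 Sertoli markers, AMH and GATA1 had a highest count of 0. Boars L8 and L13 stood apart in other cell markers. L8 had the lowest summed peritubular markers (18.1 CPM) and endothelial markers (11.6 CPM) and the highest sum of the spermatogonial list (2539 CPM), which is nearly all DDX4, a gene of germ cells more widely. L13 had the highest Sertoli markers (557 CPM, where the next boar had 310.5) and the highest macrophage markers (219 CPM, where the next boar had 133). The part of these cell markers in the results was not tested.

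The boars differed widely in most of these genes, and these differences were larger than those of most tested genes. The SD of log2 CPM over the 13 Landrace boars had a median of 0.76 over the 9 genes, against 0.34 over all 13126 tested genes. Over the 8 Duroc boars the medians were 0.63 and 0.33. HSD17B3 went the other way in Duroc, with an SD of 0.22, less than most genes. In Landrace, STAR had the widest spread of the 9 (SD 1.10), followed by CYP11A1 (0.97), CYP17A1 (0.93) and INSL3 (0.88). HSD17B3 (0.43) and FDX1 (0.44) had the narrowest. Much of this spread came from a few boars. L6 was the highest of all boars for 6 of the 9 genes, L8 the lowest for 4, and L10 the lowest for 3. Without these 3 boars, which were chosen after their values were seen, the median SD of the 9 genes in Landrace was 0.52, against 0.32 over all genes. The counting error was small beside the spread, with a coefficient of variation of 4.45% at the lowest count.

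**Figure D1:**
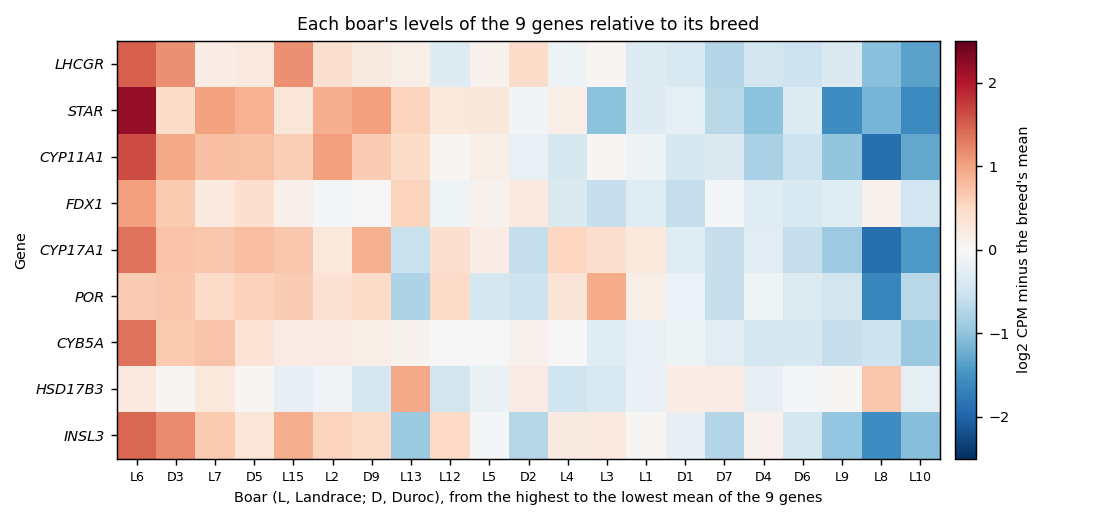
Log2 CPM of each gene (rows) in each boar (columns, L for Landrace and D for Duroc) minus the mean of its breed, with boars ordered by their mean over the 9 genes. L6 is red in every row, L8 and L10 are mostly blue, and HSD17B3 is high in L8, where most other genes are low, and in L13, where STAR, CYP11A1 and FDX1 are also above the breed mean and CYP17A1, POR and INSL3 below it.

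LHCGR, the luteinizing hormone receptor, had a mean of 35.7 ± 20.97 CPM (SD, n = 13) in Landrace and 34.9 ± 17.1 CPM (SD, n = 8) in Duroc. Its lowest level was 12.4 CPM, in L10, its median over the 21 boars 32.3 and its highest 87.8, in L6. STAR, the cholesterol carrier, ran from 95.4 CPM in L10 through a median of 348 to 1323 in L6, a 13.9-fold range. CYP11A1, the side chain cleavage enzyme, ran from 22.9 CPM in L8 through a median of 86.8 to 262 in L6. These 3 genes of the first steps thus shared their highest boar, and their lowest boars were L10 or L8.

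CYP17A1, the enzyme that commits the pathway to androgens, ran from 279 CPM in L8 through a median of 1238 to 2669 in L6. POR, its electron donor, ran from 6.33 CPM in L8 through a median of 21.7 to 37.2 in L3. CYB5A, the helper of its splitting step, ran from 465 CPM in L10 through a median of 885 to 2256 in L6. FDX1, the electron carrier of CYP11A1, had a narrower range, from 53.5 CPM in D1 through a median of 79.8 to 174 in L6.

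HSD17B3, the enzyme that makes testosterone, had its highest levels in other boars than the rest. It ran from 57.9 CPM in D9 through a median of 79.1 to 171 in L13, and the next highest was L8, with 141 CPM. L8 was among the 3 lowest boars for 7 of the 9 genes, and HSD17B3 was the gene for which it ranked near the top. INSL3, the peptide hormone, ran from 22.4 CPM in L8 through a median of 78.5 to 240.3 in D3.

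**Figure D2:**
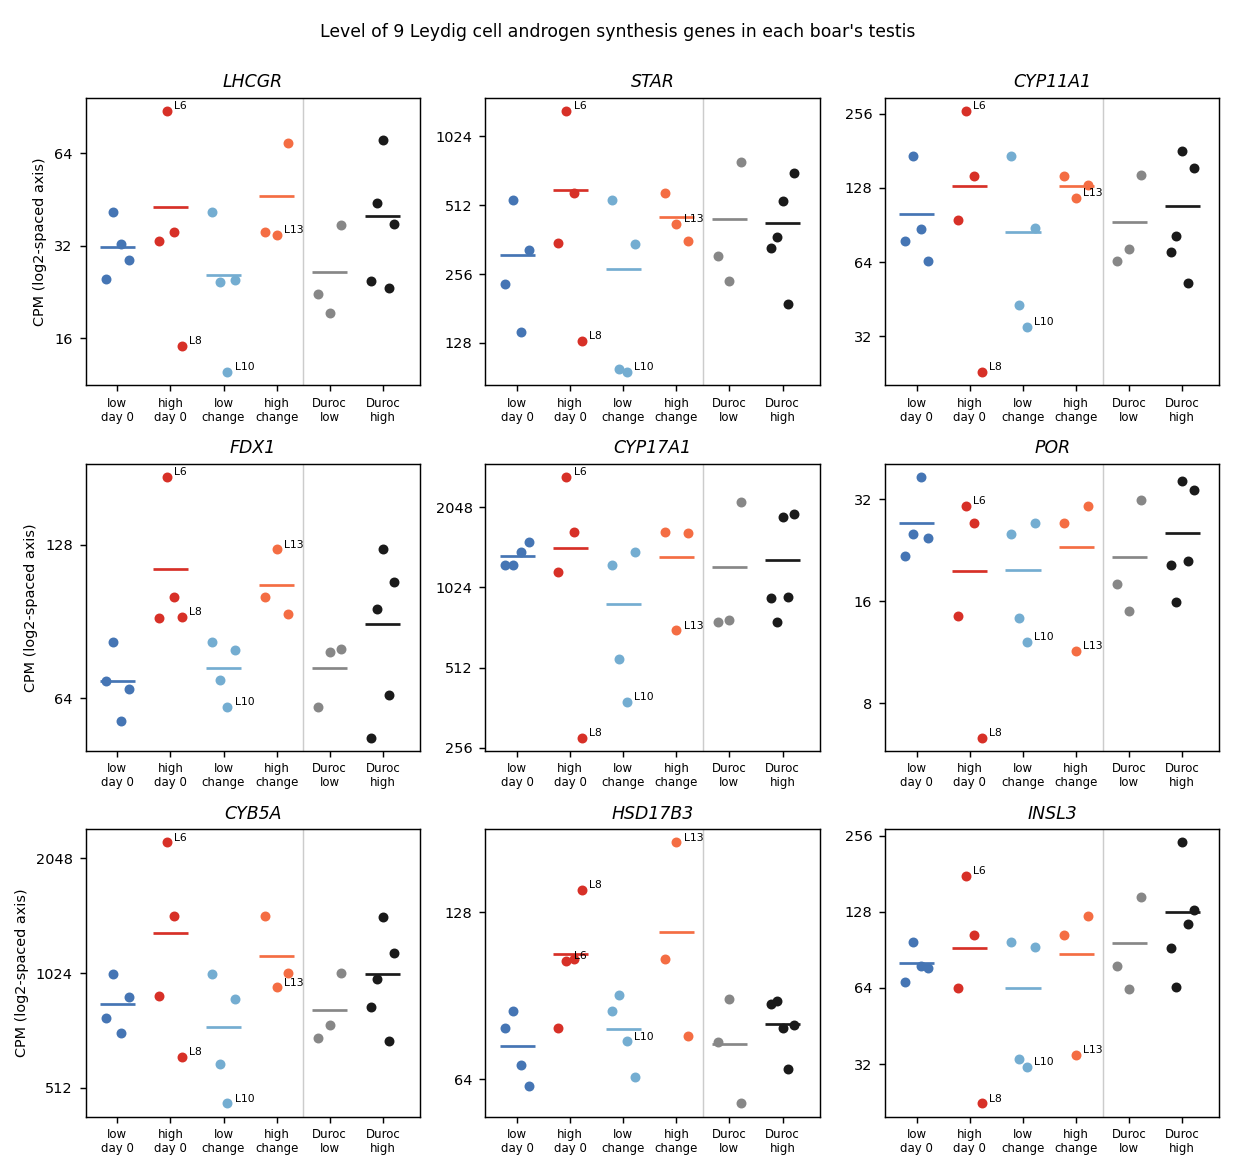
CPM on a log2-spaced axis for each of the 9 genes, with a point for each boar and a bar for the mean of each group (low and high at day 0, low and high change, Duroc as labelled). L2 and L7 appear in both Landrace contrasts. The day 0 high group spans the widest range for most genes, from L8 to L6, and its FDX1 points all lie above those of the low group.

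Ordered by mean, the 6 groups lay close together for most genes. For 8 of the 9 genes, all 5 neighbouring pairs of groups in this order differed by less than the larger of their SDs. STAR means ran from 270.5 ± 215 CPM (SD, n = 4) in the low change group to 596 ± 518 CPM (SD, n = 4) in the day 0 high group. HSD17B3 was the exception, where the step from the Duroc boars labelled high (80.5 ± 8.74 CPM, SD, n = 5) to the day 0 high group (108 ± 25.3 CPM, SD, n = 4) was larger than either SD.

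In contrast (i), which asks what differs in the testis of Landrace boars with high and low hyperactivity at ejaculation, FDX1 was the only one of the 9 genes called, and it was higher in the high group. Its levels in the low group were 69.3 CPM in L1, 82.5 in L2, 57.7 in L3 and 66.8 in L4. In the high group they were 92.0 CPM in L5, 174 in L6, 101 in L7 and 92.4 in L8. No low boar reached the level of any high boar, and L6 was far above the others. The log2 fold change (log2FC) was 0.66 (SE 0.21, 95% confidence interval 0.21 to 1.11, adjusted p = 0.0431 from the quasi-likelihood test of edgeR). The adjusted p is the false discovery rate (FDR) of Benjamini and Hochberg over all 12979 genes tested. The two-sided exact permutation test gave p = 0.0286, the smallest that 4 boars against 4 allow. Of all tested genes, 20.7% were called in this contrast, 4.82% as higher and 15.8% as lower, and 31.4% did not overlap between the groups, so that 1 of 9 genes is no more than the share over all genes. The call was narrow. FDX1 kept an FDR under 0.05 in 3 of the 8 edgeR fits that each left out 1 boar, those without L5, L7 or L8, and in the fits without L1, L2, L3, L4 or L6 the FDR was 0.0856, 0.0597, 0.15, 0.106 and 0.0899. The log2FC stayed at 0.65, 0.71, 0.56 and 0.61 without L1, L2, L3 and L4, and was 0.40 without L6. Without both L6 and L8, a choice made after seeing the data, the log2FC was 0.43 with an FDR of 0.16 from edgeR.

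HSD17B3 was just outside the threshold. Its low boars had 79.1, 84.8, 68.0 and 62.2 CPM in the order L1 to L4, and its high boars had 79.1, 105, 106 and 141 CPM in the order L5 to L8. The groups overlapped through L5. The log2FC was 0.47 (SE 0.17, FDR = 0.0634, edgeR quasi-likelihood test), and the two-sided exact permutation p was 0.0571. Of all genes, 41.7% had an unadjusted p under 0.05 in contrast (i), as had 2 of the 9, FDX1 and HSD17B3. A likelihood ratio test in edgeR, which called 26.4% of all genes, gave an FDR of 0.0456, and DESeq2, which called 30.2%, one of 0.0338. Without L5, the boar through which the groups overlapped, the log2FC was 0.62 (FDR = 0.0198, edgeR quasi-likelihood test). This fit is singled out after seeing the data, and it was the only 1 of 8 leaving out 1 boar with an FDR under 0.05. In the others the FDR ran from 0.0879 without L7 to 0.187 without L3 (edgeR). The log2FC was lowest, at 0.34, without L8.

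The genes with the widest spread gave no call in contrast (i). STAR had 231, 540.3, 143 and 325 CPM in the low boars L1 to L4 and 351, 1323, 579 and 130.2 CPM in the high boars L5 to L8. The high group held both the highest and the lowest STAR level of the 8 boars. Its log2FC was 0.88 with an SE of 0.56 (FDR = 0.247, edgeR), and without L6 it was 0.14. CYP17A1 had 1238, 1239.6, 1397 and 1511 CPM in the low boars and 1170.5, 2669, 1647 and 279 CPM in the high boars, in the same order. The low boars lay close together and the high boars on both sides of them. The log2FC of CYP17A1 was 0.03 (95% confidence interval -0.97 to 1.03, FDR = 0.964, edgeR), while the difference of the mean log2 CPM was -0.29, so that its sign depends on the measure. INSL3 likewise gave 0.13 in the edgeR fit and -0.15 as a difference of mean log2 CPM.

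The other genes in contrast (i) had log2FC values of 0.55 for CYB5A, 0.36 for LHCGR, 0.32 for CYP11A1 and -0.54 for POR. Their FDR values were 0.205, 0.506, 0.664 and 0.305 (edgeR). Leaving out 1 boar, the log2FC of CYB5A ran from 0.16 to 0.80 and that of POR from -0.82 to -0.23. In all, 8 of the 9 log2FC values were above 0, as were 52.1% of those of all tested genes. This count rested on L6, without which it was 4 of 9, with CYP11A1 at -0.26, CYP17A1 at -0.43, LHCGR at -0.25 and INSL3 at -0.39 beside POR. The median over the 9 genes was 0.36, against 0.03 over all genes. Their median SE was 0.40, against 0.20 over all genes. With library size alone in place of TMM, the median of all genes fell by 0.16 on the log2 scale, FDX1 had a log2FC of 0.52 (FDR = 0.114, edgeR), and the share of higher genes among those called was 4.06% in place of 23.3%.

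In contrast (iii), which asks what differs between Landrace boars whose sperm change little or much in hyperactivity during storage, all 9 genes had log2FC values above 0 and none was called. Over all 12824 tested genes 50.4% were above 0 and 0% were called by edgeR's quasi-likelihood test, while 19.8% had an unadjusted p under 0.05. A likelihood ratio test called 64 genes (0.499%) and DESeq2 116 (0.905%), none of them among the 9. The unadjusted p was under 0.05 for 4 of the 9 genes, all higher, where 9.5% of all genes were higher with such a p. The median log2FC of the 9 genes was 0.57, against 0.003 over all genes. Markers of other cells had medians away from 0 as well, at 0.54 for the endothelial list (4 of 4 tested genes above 0), 0.45 for the Sertoli list (6 of 6), 0.45 for the macrophage list (3 of 3) and -0.48 for the spermatid list (5 of 6 below 0), none with a call. NR5A1, the gene of the Leydig marker list outside the 9, had a log2FC of 0.16. Their part in the result was not tested. The 9 genes vary together from boar to boar, so that their number does not add up to independent observations.

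FDX1 again separated the groups. In the low change group it had 82.5 CPM in L2, 69.3 in L9, 61.4 in L10 and 79.6 in L12. In the high change group it had 101 CPM in L7, 125 in L13 and 93.5 in L15. All 3 high boars were above all 4 low boars, and 16.4% of all tested genes did not overlap between these groups in either direction. The log2FC was 0.53 (SE 0.16, FDR = 0.24, edgeR quasi-likelihood test), and the two-sided exact permutation p was 0.0286, the smallest that 3 boars against 4 allow. Since L2 and L7 are in both contrasts, this is not a separate test of what contrast (i) showed.

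LHCGR had the highest log2FC of contrast (iii), 0.84 (SE 0.37, FDR = 0.247, edgeR). The low change boars L2, L9, L10 and L12 had 41.2, 24.4, 12.4 and 24.8 CPM, and the high change boars L7, L13 and L15 had 35.4, 34.7 and 69.3 CPM. The groups overlapped through L2, and without L15 the log2FC was 0.43. STAR had 540.3, 98.2, 95.4 and 348 CPM in the low change boars and 579, 425 and 357 CPM in the high change boars, with a log2FC of 0.72 (FDR = 0.427, edgeR). Its low group fell into a pair of boars near the high group and a pair far below. HSD17B3 had 84.8, 90.7, 74.9 and 64.5 CPM in the low change boars and 106, 171 and 76.6 CPM in the high change boars. Its log2FC was 0.57 (FDR = 0.245, edgeR) and rested on L13, the boar with the highest Sertoli and macrophage markers, since it was 0.21 without that boar. The log2FC values of CYB5A, CYP11A1, CYP17A1, INSL3 and POR were 0.61, 0.60, 0.57, 0.43 and 0.21, with FDR values from 0.247 to 0.752 (edgeR). Leaving out 1 boar moved these widely. CYB5A then ran from 0.40 to 0.80, CYP11A1 from 0.32 to 1.22, CYP17A1 from 0.29 to 0.87 and INSL3 from 0.10 to 0.81.

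In contrast (ii), between the Duroc boars as labelled, none of the 9 genes was called, as was none of the 13043 tested genes (0%), and 1.21% of all genes had an unadjusted p under 0.05 by edgeR. A likelihood ratio test and DESeq2 called none of the 9 genes either, and no one of the 9 had an unadjusted p under 0.05. With the direction as labelled, the log2FC values ran from -0.07 for STAR to 0.60 for LHCGR. They were above 0 for 8 of the 9 genes, as for 58.8% of all genes, and all these signs would turn if the labels were reversed. No gene of the 9 separated the groups, where 1.3% of all genes did. For STAR the difference of the mean log2 CPM was 0.006, of opposite sign. LHCGR had 24.6, 44.1, 70.9, 23.3 and 37.7 CPM in the boars labelled high, D1 to D5, and 22.3, 19.3 and 37.4 CPM in D6, D7 and D9, labelled low. The groups overlapped, with a 95% confidence interval of the log2FC of -0.19 to 1.40. FDX1, which separated the Landrace groups, had 53.5, 95.5, 126, 65.0 and 108 CPM in the boars labelled high and 61.4, 78.8 and 79.8 CPM in those labelled low. Its lowest and highest Duroc boars were both among those labelled high (log2FC 0.30, 95% confidence interval -0.26 to 0.86, FDR = 1, edgeR). Matched by name and without D5, the labels and the published grouping split the boars alike under opposite names. The log2FC values then ran from -0.33 for STAR to 0.62 for LHCGR with the direction as labelled. Under the published names every sign would turn, with LHCGR lowest and STAR highest. In this fit 0 of the 9 were called by edgeR.

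Between the breeds, none of the 9 genes was called by edgeR's quasi-likelihood test, its likelihood ratio test or DESeq2, and 0 had an unadjusted p under 0.05 in the first, while 2.88% of the 13126 tested genes were called in that test (1.35% higher in Duroc and 1.53% lower), 4.07% by the likelihood ratio test and 4.28% by DESeq2. Of all genes 12.3% had an unadjusted p under 0.05 (6.23% as higher), 47.8% had a fold change above 0, as had 5 of the 9, and 0.282% did not overlap between the breeds, as did none of the 9. The widest difference was that of INSL3. Its level was lowest at 63.4, with a median of 103 and a highest value of 240.3 CPM, in the 8 Duroc boars, and lowest at 22.4, with a median of 76.5 and a highest value of 177 CPM, in the 13 Landrace boars. The ranges overlapped over most of their length. The means were 116 ± 58.6 CPM (SD, n = 8) in Duroc and 77.1 ± 43.3 CPM (SD, n = 13) in Landrace, a log2FC of 0.61 for Duroc over Landrace (SE 0.32, 95% confidence interval -0.05 to 1.26, FDR = 0.479, edgeR). Without D3, the highest boar, it was 0.39. HSD17B3 was the lowest of the 9, with a log2FC of -0.23 (95% confidence interval -0.55 to 0.10, FDR = 0.735, edgeR), from 78.1 ± 11.2 CPM (SD, n = 8) in Duroc and 92.5 ± 31.8 CPM (SD, n = 13) in Landrace. For CYP11A1, CYB5A and LHCGR the log2FC values were 0.01, -0.01 and -0.01, with 95% confidence intervals of -0.69 to 0.72, -0.46 to 0.45 and -0.63 to 0.60. Breed differences within these intervals were not excluded with 8 and 13 boars.

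**Figure D3:**
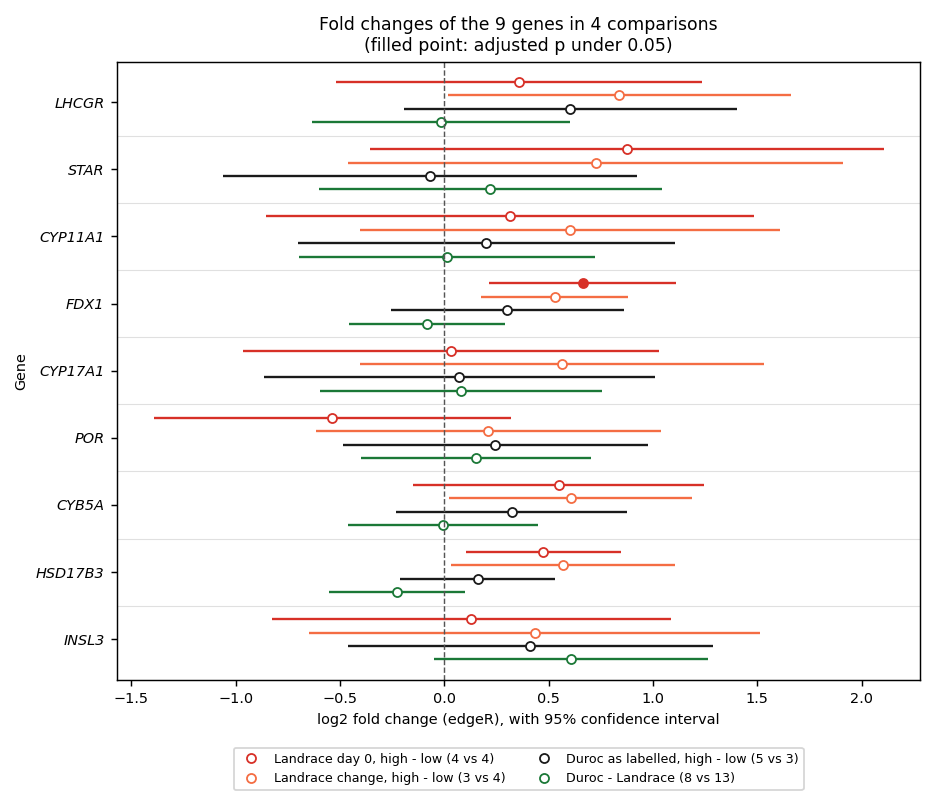
Log2FC (x axis) with its 95% confidence interval for each of the 9 genes (y axis) in the 4 comparisons, from edgeR, with a filled point where the FDR is under 0.05. FDX1 at day 0 in Landrace (0.66) is the single filled point, and the intervals of STAR, CYP11A1, CYP17A1 and INSL3 are wide and include 0 in each comparison.

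Within each breed, most of the 9 genes rose and fell together from boar to boar, and HSD17B3 did not. All 36 pairs of genes were correlated within the 13 Landrace boars and within the 8 Duroc boars, which makes 72 relations, with permutation p-values (exact in Duroc) adjusted over all of them. The values share each boar's library, its depth and its cell composition. Of the 28 Landrace pairs without HSD17B3, 22 had an FDR under 0.05 for Pearson's r, all with a positive r, and 19 of them for Spearman's rho as well. Of the 28 Duroc pairs without HSD17B3, 14 did so, 7 of them by both measures. The median r over these pairs was 0.80 in Landrace and 0.79 in Duroc, and 0.64 and 0.68 after leaving out the 2 boars farthest from the median of the gene on the x axis of each pair.

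STAR and CYB5A followed each other closely, with r = 0.96 and rho = 0.98 in Landrace (adjusted permutation p = 0.00036 and 0.00024), and r = 0.93 without L6 and L10. In the 8 Duroc boars r was 0.80 and rho 0.88 (adjusted exact p = 0.0402 and 0.0237), and r was 0.90 without the 2 farthest boars. CYP11A1 and LHCGR had r = 0.89 and rho = 0.94 in Landrace (adjusted permutation p = 0.00112 and 0.00024), and r = 0.82 without L6 and L8. STAR and CYP11A1, the carrier and the enzyme that takes its cholesterol, had r = 0.89 in Landrace and 0.91 in Duroc (FDR = 0.000864 by permutation and 0.0101 by the exact permutation test), with rho = 0.95 and 0.83.

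Close relations also joined CYP17A1, POR and INSL3, though no test divided the genes into sets. CYP11A1 and CYP17A1 had r = 0.86 in Landrace and 0.90 in Duroc, while STAR and POR had r = 0.49 and 0.78. CYP17A1 and INSL3 had r = 0.96 and rho = 0.94 in Landrace (adjusted permutation p = 0.00036 and 0.000432), and r was still 0.96 without L8 and L10. In Duroc their r was 0.86 and rho 0.83 (adjusted exact p = 0.00662 and 0.041), and r was 0.97 without the 2 farthest boars. POR and INSL3 had r = 0.90 in Landrace and 0.93 in Duroc (FDR = 0.00072 by permutation and 0.00112 by the exact permutation test), with rho = 0.88 and 0.98, and r = 0.83 and 0.96 without the 2 farthest boars. CYP17A1 and its electron donor POR had r = 0.90 in Landrace and 0.97 in Duroc, with rho = 0.87 and 0.81, where the adjusted exact p for rho in Duroc was 0.0523.

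In Landrace, FDX1 had higher correlations with STAR and CYB5A than with these 3 genes. Its r was 0.77 with STAR and 0.79 with CYB5A (adjusted permutation p = 0.00662 for both), 0.64 with LHCGR (adjusted permutation p = 0.0402) and 0.59 with CYP11A1, the enzyme it serves (adjusted permutation p = 0.0639). It was 0.31 with CYP17A1, 0.33 with INSL3 and -0.02 with POR. Without L6 and L10 its r with STAR was 0.54 and with CYB5A 0.49. In Duroc its r was 0.58 with CYP17A1, 0.51 with INSL3 and 0.55 with POR, against 0.57 with STAR and 0.85 with CYB5A. The difference between these correlations was not tested.

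HSD17B3 had an FDR under 0.05 with 1 of the other 8 genes in Landrace and with none in Duroc. That gene was FDX1 in Landrace (r = 0.64 and rho = 0.74, adjusted permutation p = 0.0402 and 0.0193), with r = 0.68 without L13 and L8. Its r with POR in Landrace was -0.59 (adjusted permutation p = 0.0639) and was -0.04 without L13 and L8, so that it rested on those boars. Over all 21 boars, centred by breed, the correlation of each gene with the mean of the other 8 was 0.96 for CYB5A, 0.94 for CYP11A1, 0.89 for STAR and LHCGR, 0.82 for CYP17A1, 0.80 for INSL3, 0.68 for FDX1, 0.62 for POR and -0.09 for HSD17B3.

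**Figure D4:**
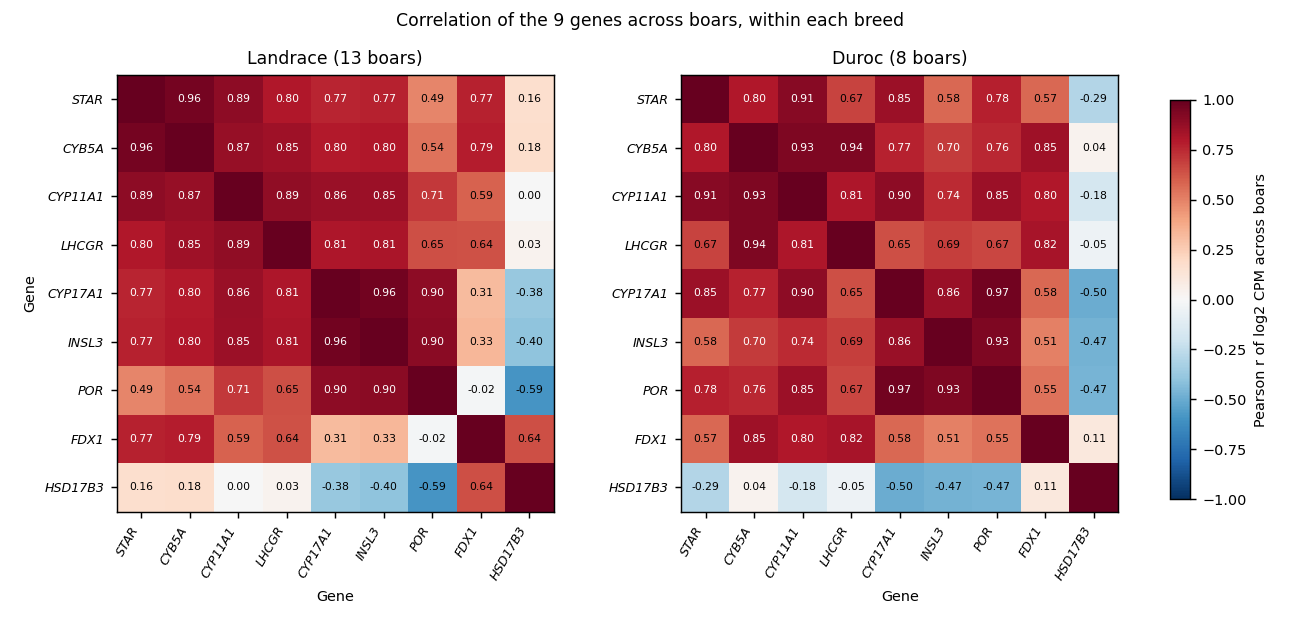
Pearson r of log2 CPM between each pair of the 9 genes, within the 13 Landrace boars (left) and the 8 Duroc boars (right). HSD17B3 is pale or blue against most genes in both breeds, and CYP17A1, INSL3 and POR form a block of r from 0.86 to 0.97.

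Ratios between genes of successive steps do not depend on how libraries are scaled, and 6 of them were compared in the 4 comparisons, 24 tests in all by two-sided exact permutation. None passed Benjamini-Hochberg adjustment, where the lowest FDR was 0.922. The ratio of CYB5A to CYP17A1 in contrast (i) had a mean log2 value of 0.08 ± 0.71 (SD, n = 4) in the high boars but -0.67 ± 0.29 (SD, n = 4) in the low group, with an exact permutation p of 0.0571. L8 decided much of this, with a log2 ratio of 1.14, and the difference fell from 0.75 to 0.40 without it. The ratio of POR to CYP17A1 in contrast (iii) ran from -5.95 to -5.75 on the log2 scale in the high change boars and from -5.67 to -4.96 in the low change boars, without overlap (difference -0.49, exact permutation p = 0.0857).

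Across all boars, the ratio of HSD17B3 to CYP17A1 varied most, 18.6-fold, from a log2 value of -5.21 in D9 to -0.99 in L8. The ratio of FDX1 to CYP11A1 varied 8.39-fold and was also highest in L8. CYB5A to CYP17A1 varied 4.60-fold, CYP17A1 to CYP11A1 3.86-fold, CYP11A1 to STAR 3.44-fold and POR to CYP17A1 2.79-fold. The enzyme and its electron donor thus kept the narrowest range of the 6 ratios.

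**Figure D5:**
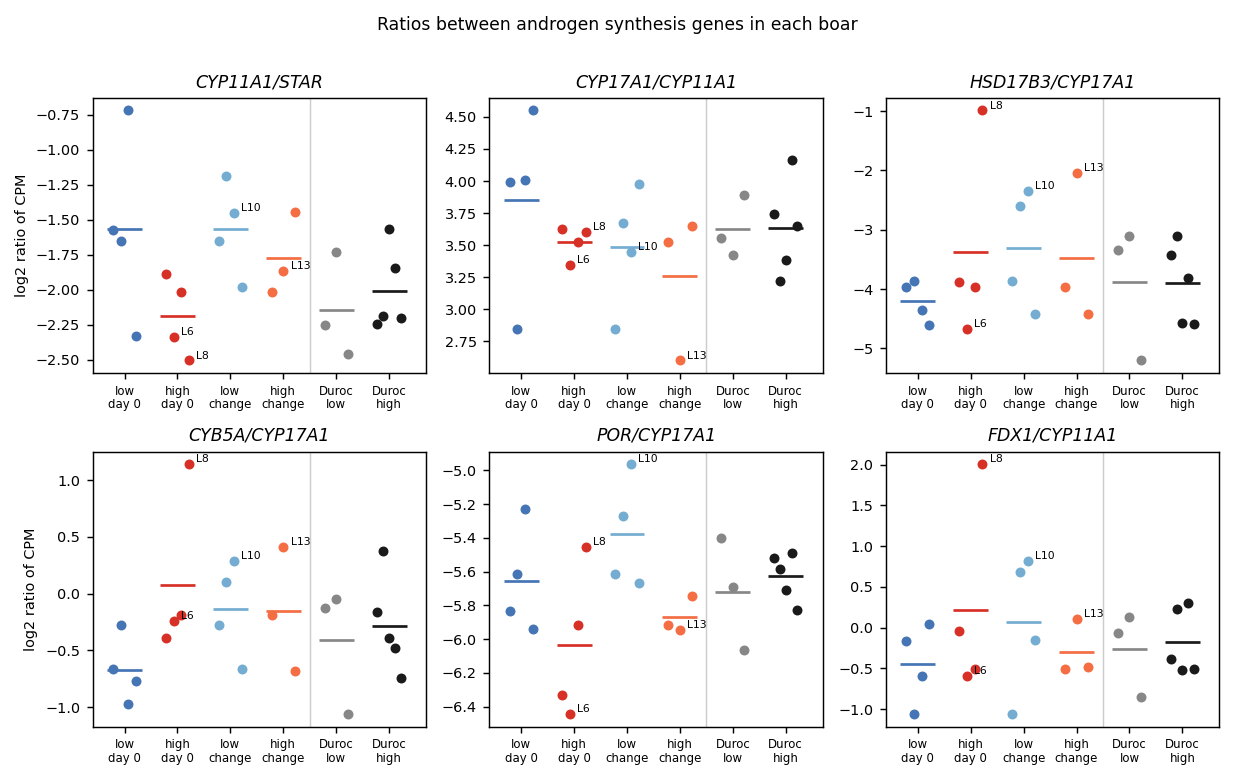
Log2 ratio of CPM between genes of the pathway, with a point for each boar and a bar for the mean of each group. L8 is far above the other boars for HSD17B3 to CYP17A1, CYB5A to CYP17A1 and FDX1 to CYP11A1, and the groups overlap in every panel but POR to CYP17A1 in the change groups.

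Around the 9 genes, further genes of androgen synthesis were listed by role. Of the 9 tested genes of cholesterol supply, LIPE, the hormone-sensitive lipase that frees stored cholesterol, fell in contrast (i), at 28.8 ± 13.3 CPM (SD, n = 4) in high boars and 62.7 ± 5.11 CPM (SD, n = 4) in low boars (log2FC -1.19, FDR = 0.022, edgeR). Of the 4 electron donors beside FDX1, POR and CYB5A, CYB5R3, the reductase of cytochrome b5, fell as well, at 32.9 ± 13.5 CPM (SD, n = 4) compared with 71.9 ± 5.78 CPM (SD, n = 4) (log2FC -1.19, FDR = 0.023, edgeR). FDXR, the reductase that feeds FDX1, had a log2FC of -1.32 and an FDR of 0.053 (edgeR). Of the 10 tested genes of steroid conversion, HSD17B11 rose, at 305 ± 37.5 CPM (SD, n = 4) compared with 216 ± 16.8 CPM (SD, n = 4) (log2FC 0.42, FDR = 0.0341, edgeR). None of the 8 tested Leydig regulators or the 3 steroid and INSL3 receptors was called in contrast (i), where 20.7% of all genes were. The calls of this contrast, those named here included, depended on single boars: 1 gene of the whole set was called without L6 and 1 without L3, and 966, 1228 and 1481 without L1, L8 and L4, in place of 2682.

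In contrasts (iii) and (ii), no gene of these lists was called. Between the breeds, SRD5A2, a steroid reductase that makes dihydrotestosterone, was higher in Duroc, at 2.46 ± 0.75 CPM (SD, n = 8) compared with 1.25 ± 0.38 CPM (SD, n = 13) (log2FC 0.99, FDR = 0.00538, edgeR). GATA4, a transcription factor of Leydig and Sertoli cells, was higher in Duroc as well, at 23.1 ± 3.83 CPM (SD, n = 8) compared with 13.9 ± 3.59 CPM (SD, n = 13) (log2FC 0.74, FDR = 0.00692, edgeR). Of the other cell markers, KIT, a germ cell receptor, was lower in Duroc, with a log2FC of -1.40 (FDR = 0.000678, edgeR). Beside FDX1 in contrast (i), marker genes of other cells also passed. Of the 4 tested peritubular markers, MYH11, DES and MYOCD fell, with log2FC values of -1.17, -1.50 and -2.14. Of the 6 spermatid markers, PRM1 and TNP2 fell by 0.70 and 0.73 on the log2 scale, while 3 others had values above 0 (ACRV1 0.46, TNP1 0.21 and ODF1 0.07) and the median of the list was -0.07. Of the 4 tested genes of the spermatogonial list, DDX4 rose by 0.52, and the log2FC was -0.07 for ZBTB16, -0.15 for UCHL1 and -0.46 for KIT. The haemoglobin gene HBB fell by 2.53. The peritubular markers summed to 18.1 to 54.2 CPM in the high boars and 44.0 to 101 CPM in the low boars. NR5A1, the gene of the Leydig marker list outside the 9 genes, had a log2FC of -0.53 (unadjusted p = 0.0989, FDR = 0.187, edgeR). The Sertoli markers had a median of 0.09 with no call. The spermatocyte markers had a median of 0.48 (5 of 5 above 0), the endothelial markers -0.29 (4 of 4 below 0) and the macrophage markers 0.14 (2 of 3 above 0). None of these lists had a call. The part of cell composition in the FDX1 difference was not tested.

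The genes whose levels went most closely with the mean of the 9 genes, over 21 boars centred by breed and 13126 genes, were RDH11 (r = 0.968), CLIC5 (0.965), SULT2A1 (0.952), FAP (0.948), SRXN1 (0.945), ENSSSCG00000005518 (0.943), MMP19 (0.943), TMEM47 (0.934), HSPB8 (0.934) and PGRMC1 (0.926). RDH11 is a retinal reductase and SULT2A1 the sulfotransferase of dehydroepiandrosterone. The gene nearest to CYP17A1 and to INSL3 was SULT1C3, with r = 0.959 and 0.965, and CYP17A1 itself ranked 3 among the genes nearest to INSL3. HSD17B3 had other neighbours, led by CSNK1G3 (0.952), RECQL (0.947) and FERMT2 (0.946). FDX1 was nearest to BCKDHB (0.930), MAGT1 (0.929) and GBE1 (0.928). These are descriptions of 21 libraries, since a gene among 13126 can follow another by its place in the tissue, its depth or its composition.

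On Sscrofa11.1, the build of the RefSeq annotation that gave the positions by symbol, the 9 genes lie on 8 chromosomes. STAR lies on chromosome 15 from 48377597 to 48385398, CYP11A1 on chromosome 7 from 59172829 to 59188479, CYP17A1 on chromosome 14 from 113805616 to 113820445, and HSD17B3 on chromosome 10 from 25822913 to 25866871. CYB5A lies on chromosome 1 from 149737584 to 149773222, FDX1 on chromosome 9 from 38376147 to 38399026, and INSL3 on chromosome 2 from 59929591 to 59931220. POR and LHCGR share chromosome 3, from 10212734 to 10272184 and from 91964415 to 92023821. The annotation places BORCS7 over CYP17A1, LOC110262223 over FDX1 and GTF2A1L over LHCGR, and the counts were made by strand.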

How the data were processed

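The authors sequenced testis mRNA with a stranded kit as single reads, used Trimmomatic 0.36 for trimming, the STAR aligner on the Sscrofa11.1 build and HTSeq for counting in reverse stranded mode. The deposited values are raw counts per Ensembl gene, 1 file per boar, without normalization. Rows that name no gene (0.698% to 0.837% ambiguous, 21.5% to 30.2% in no gene, 5.83% to 8.28% aligned to several places) were left out of library sizes. The tools were edgeR 4.0.16 and DESeq2 1.42.0 under R 4.3.3. A gene needed 1 CPM or more in 4 or more libraries (8 for the breeds), libraries were normalized by TMM within each comparison, and edgeR's quasi-likelihood test was run with Benjamini-Hochberg adjustment over all tested genes at 0.05. The submitters' notes name edgeR 3.12.1, and their likelihood ratio test was run as an alternative. Fold changes come from these fits, and CPM were scaled over all 21 libraries, so the ratio of mean CPM can differ from the fold. The fits were also run on simulated data, and the outcome is not given here. The 106 pairs of boars within a breed had a chi-square per degree of freedom of 40.3 to 618, and none was a duplicate. Symbols came from an identifier table and RefSeq. Gene lengths were not used, so levels were not compared between genes except as ratios within a boar. The named genes are the 9 genes, the called genes of each list, at most 4 by p, and the 10 genes nearest to the mean of the 9. The members and lists were chosen with earlier results of these data known. Promoter and protein sequences were not analysed here.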

Additional observations from a re-analysis of the deposited data

Results flagged for a closer look

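In 75 groups of values of the 9 genes and their ratios, 3 had a boar far from the others of its group by Dixon's test, where chance alone gives about 1 in 20 groups, or 3.75. FDX1 in boar L6 of the day 0 high group was at 174 CPM, where the other 3 boars lay between 92.0 and 101 CPM. The log2 ratio of CYB5A to CYP17A1 in boar L8 of the same group was 1.14, where the others lay between -0.39 and -0.19. INSL3 in the Duroc boar D3 was at 240.3 CPM, where the other 7 Duroc boars lay between 63.4 and 147 CPM.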

How the results depend on the processing

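No paired analysis was possible because each boar is a single animal and the labels give the groups no shared replicate numbers. In contrast (i), edgeR's likelihood ratio test and DESeq2 each called 2 of the 9 genes, FDX1 and HSD17B3, and library size alone, leaving out L2 and L7, and leaving out L6 and L8 (chosen after seeing the data) each called 0, where FDX1 had adjusted p-values of 0.114, 0.0667 and 0.16 (edgeR). Without L6 and L8, 0 of all genes were called, and the fits that left out 1 boar called 1 (without L6 or L3) to 3764 genes and 0 to 2 of the 9. In contrast (iii), 64 genes were called by the likelihood ratio test, 116 by DESeq2 and 1 each with no filter and with filterByExpr, and leaving out 1 boar gave 0 to 1. In contrast (ii) it gave 0 to 2 genes, and between the breeds 268 to 491. The cause of these changes was not tested. CYP17A1 in contrast (i) turned to -0.0876 with library size alone and -0.13 without L2 and L7. Between the breeds, CYB5A turned to 0.000507 with library size alone, and CYP11A1 to -0.00653 with no filter and -0.00174 with filterByExpr.

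Leaving out 1 boar turned the sign of these log2 fold changes, given as ranges. In contrast (i), CYP11A1 ran from -0.26 to 0.69, CYP17A1 from -0.43 to 0.39, LHCGR from -0.25 to 0.66 and INSL3 from -0.39 to 0.47, each lowest without L6. In contrast (iii), POR ran from -0.0458 to 0.54. In contrast (ii), STAR ran from -0.38 to 0.72, CYP11A1 from -0.0745 to 0.73 and CYP17A1 from -0.20 to 0.83. Between the breeds, CYP11A1 ran from -0.14 to 0.21, CYP17A1 from -0.0855 to 0.23, CYB5A from -0.10 to 0.16, FDX1 from -0.18 to 0.0312 and LHCGR from -0.23 to 0.17. Of the log2 ratios, CYP17A1 to CYP11A1 ran from -0.0578 to 0.10 between the breeds, -0.44 to 0.10 in contrast (iii) and -0.12 to 0.14 in contrast (ii). CYB5A to CYP17A1 ran from -0.21 to 0.00693, -0.30 to 0.25 and -0.19 to 0.31 in the same order. POR to CYP17A1 ran from -0.00139 to 0.12 between the breeds and -0.0815 to 0.25 in contrast (ii). HSD17B3 to CYP17A1 ran from -0.88 to 0.31 in contrast (iii) and -0.67 to 0.37 in contrast (ii), and in contrast (ii) CYP11A1 to STAR ran from -0.0175 to 0.34 and FDX1 to CYP11A1 from -0.21 to 0.28. The lowest count of any of the 9 genes, 505, has a counting coefficient of variation of 4.45%.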
